A study of Homo sapiens
Mus musculus with 2 samples.

Results

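The members were 4 genes that mark white blood cells as a whole, each in mouse and human. They were Ptprc, which encodes CD45 (mm10_ENSMUSG00000026395), Laptm5 (mm10_ENSMUSG00000028581), Lcp1, which encodes L-plastin (mm10_ENSMUSG00000021998), and Coro1a, which encodes coronin 1A (mm10_ENSMUSG00000030707), together with the human genes PTPRC (hg19_ENSG00000081237), LAPTM5 (hg19_ENSG00000162511), LCP1 (hg19_ENSG00000136167) and CORO1A (hg19_ENSG00000102879). These 8 genes, of 29259 in the tables, were taken by their identifiers, and all 8 were detected in both libraries. Single cells from 4 lymphocyte lines, pooled at equal numbers, were profiled with Drop-seq, in which a cell and a barcoded bead share a droplet and each captured RNA end is counted once as a unique molecular identifier (UMI). Jurkat and TALL-104 are human leukaemic T cell lines, the latter cytotoxic, EL4 is a mouse T lymphoma line, and IVA12 is a B hybridoma of the mouse. The labels name no treatment. Such a mixture was loaded at 150 cells per µl for the first library (the 150 library) and 300 cells per µl for the second (the 300 library). Whether both libraries came from a single pool is not given in the labels. Each line is an established tumour or fusion line and not a primary lymphocyte.

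CD45 is a transmembrane tyrosine phosphatase carried by nearly all nucleated blood cells, and in lymphocytes it keeps Src-family kinases such as Lck ready for antigen receptor signalling. LAPTM5 is a lysosomal membrane protein of haematopoietic cells that takes part in the turnover of antigen receptors. L-plastin bundles actin filaments, and coronin 1A binds the actin cortex of leukocytes and is needed for the survival and migration of T cells. Because all 4 are regarded as pan-leukocyte genes, they serve to find immune cells in mixed tissue, and the present mixture shows how evenly they are kept between T lines and a B hybridoma.

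Cells were barcodes with at least 1000 UMIs, of which at least 90% belonged to 1 species. The 150 library gave 87 human and 85 mouse cells, and the 300 library gave 318 human and 685 mouse cells. Mouse cells were clustered without the members and named from marker genes, which gave 41 and 349 T-like cells and 28 and 227 B-like cells, while 16 and 109 shallow mouse cells stayed unnamed. T-like cells carried Thy1, Cd3d, Cd3g and Lck, and 6 of 6 tested T markers were lower in B-like cells (median log2 difference −5.19). B-like cells carried Jchain, Mzb1, Pou2af1 and Cd79b, and 5 of 5 tested B markers were higher there (median 6.39). The classes were named from these markers, so both counts only describe them. The tables give no gene symbols, and the names of all genes other than the members were paired with their identifiers from general knowledge and could not be checked. A pair of defining markers was at or near 0: Cd4 had 0 UMIs in both classes although EL4 is described as a CD4+ line, and Cd79a had 2 UMIs in B-like cells. The median depth was 12430 and 8091 UMIs in T-like cells, 14706 and 8507 in B-like cells, and 6383 and 3713.5 in human cells, in the 150 and the 300 library, the order used throughout. The libraries shared 1 barcode among all their barcodes.

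In mouse T-like cells every member was measured well above the level that free RNA gave in human cells. All levels below are UMIs per 1000000 UMIs of the gene's species in the class (CPM), with exact Poisson 95% intervals that cover counting error only. A UMI marks 1 captured RNA end, so no level was divided by transcript length. Ptprc stood at 598 CPM in the 150 library (537 to 664, 350 UMIs) and 604 CPM in the 300 library (577 to 632, 1900 UMIs). Its 2 libraries overlapped, and Ptprc ranked 241 of 10240 and 234 of 12364 detected genes. Lcp1 stood at 862 CPM (789 to 941, 505 UMIs) and 881 CPM (848 to 914, 2771 UMIs), also overlapping, at rank 171 and 150. Laptm5 stood at 410 CPM (360 to 465, 240 UMIs) and 556 CPM (530 to 583, 1750 UMIs), at rank 396 and 254, with intervals that did not meet. Coro1a was the lowest, at 46.1 CPM (30.4 to 67.1, 27 UMIs) and 145 CPM (132 to 159, 457 UMIs), at rank 3644 and 1367. The plot of levels by class and library shows this order with the free RNA level.

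**Figure D1:**
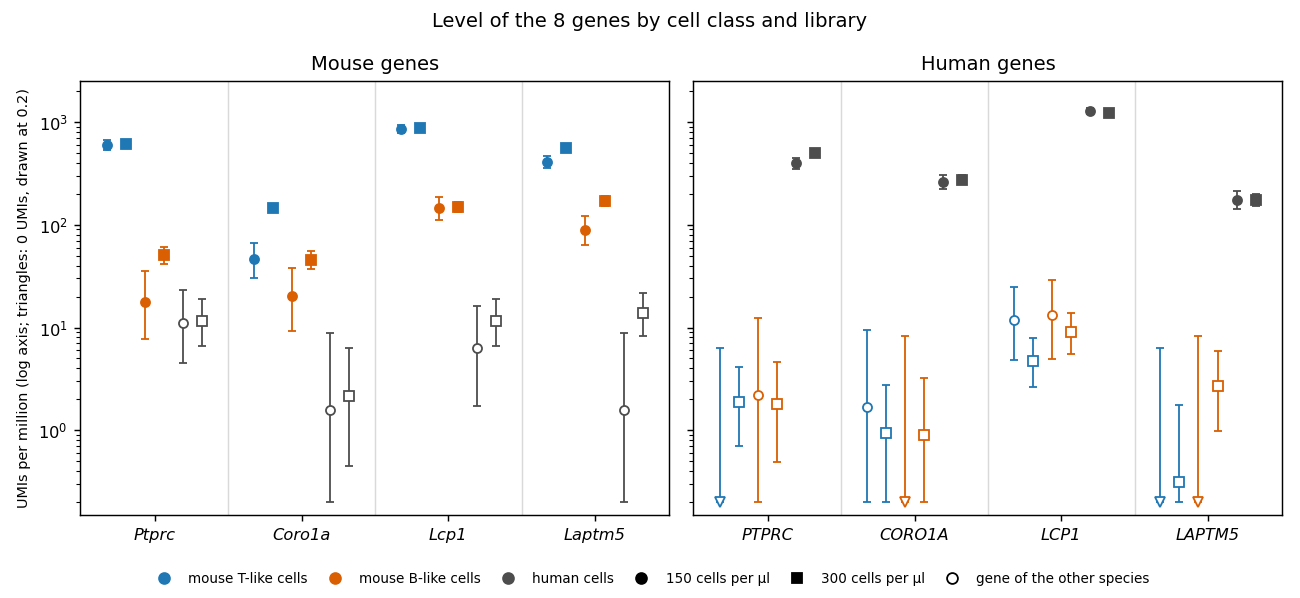
Level of each gene in CPM (log axis) in mouse T-like (blue), mouse B-like (orange) and human (grey) cells, with circles for the 150 and squares for the 300 library. Bars are exact Poisson 95% intervals, open symbols are genes of the other species and triangles mark 0 UMIs. Within each library T-like cells lie above B-like cells for each mouse gene, and Ptprc in B-like cells in the 150 library (17.9 CPM) lies near its open symbol in human cells (11.2 CPM).

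In mouse B-like cells all 4 members were lower than in T-like cells, and all 4 still gave UMIs in both libraries. Ptprc stood at 17.9 CPM (7.72 to 35.2, 8 UMIs in 28 cells) and 50.7 CPM (41.8 to 61.1, 112 UMIs in 227 cells). Laptm5 stood at 89.4 CPM (63.9 to 122, 40 UMIs) and 170 CPM (154 to 188, 376 UMIs). Lcp1 stood at 145 CPM (112 to 185, 65 UMIs) and 149 CPM (134 to 167, 330 UMIs). Coro1a stood at 20.1 CPM (9.196 to 38.2, 9 UMIs) and 45.8 CPM (37.3 to 55.6, 101 UMIs). For Ptprc, Laptm5 and Lcp1 each B-like value lay below both T-like values. For Coro1a the B-like value in the 300 library lay level with the T-like value in the 150 library, and within each library the interval of the ratio lay below 1.

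The difference between the mouse classes was tested over the libraries, with UMIs summed per class and library. A gene called lower can still be expressed, so the test does not say which members stay on. By the quasi-likelihood test of edgeR with the library as a block and Benjamini-Hochberg adjustment over 8857 mouse genes, 4 of 4 members were lower in B-like cells. This has to be read against the background, since 25.9% of all tested genes were called lower in B-like cells and 30.8% were called higher. On the log2 scale, B-like over T-like, Ptprc was −3.75 (SE 0.15, n = 2 libraries, adjusted p = 4.9e-128 by edgeR). Lcp1 was −2.51 (SE 0.12, adjusted p = 4.1e-92 by edgeR), and Laptm5 was −1.77 (SE 0.13, adjusted p = 3.5e-41 by edgeR). Coro1a was −1.55 (SE 0.21, adjusted p = 3.2e-12 by edgeR, and 0.024 by DESeq2). The median of the 4 members was −2.14, against 0.05 over all genes tested. Of the 8857 genes, 4.55% had a lower value than Ptprc, 6.49% than Lcp1, 8.86% than Laptm5 and 10.2% than Coro1a. Both libraries hold the same lines, and the labels do not say whether they came from a single pool. The fit estimates spread with all genes together. The p-values thus measure neither the spread of each member between the 2 libraries nor that between cultures. For Ptprc the libraries alone gave −5.06 (150 library) and −3.57 (300 library), and DESeq2 gave an SE of 0.39 (adjusted p = 3.6e-23). Without the block, adjusted p by edgeR was 7.5e-07 for Ptprc, 2.5e-06 for Lcp1 and 0.00013 for Laptm5.

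The share of the T-like level that B-like cells kept differed between the members. Ptprc kept 2.99% in the 150 library (exact 95% interval 1.28% to 5.96%) and 8.40% in the 300 library (6.88% to 10.2%). Lcp1 kept 16.8% (12.8% to 21.8%) and 17.0% (15.1% to 19.0%). Laptm5 kept 21.8% (15.2% to 30.6%) and 30.6% (27.3% to 34.3%), and Coro1a kept 43.6% (18.1% to 95.6%) and 31.5% (25.1% to 39.2%). Ptprc was thus kept least in both libraries. Lcp1 lay below Laptm5 in the 300 library, while their intervals overlapped in the 150 library, and Laptm5 and Coro1a overlapped in both. The size of the Ptprc difference depended on the library: it was 33.4-fold (16.8 to 78.0) in the 150 library alone and 11.9-fold (9.83 to 14.5) in the 300 library alone.

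T markers were also found in B-like barcodes. Summed over the 6 detected T markers, B-like cells held 10 UMIs in the 150 library and 126 in the 300 library, which was 1.08% (0.52% to 1.99%) and 2.49% (2.07% to 2.97%) of the T-like level. The shares kept by Lcp1, Laptm5 and Coro1a lay above these sums in both libraries. Of the single T markers, Cd247 kept 16.4% (0.37% to 122%, 1 B-like UMI) and 13.9% (5.38% to 30.0%, 7 B-like UMIs), which overlapped these members in both libraries. The other T markers kept less, at most 3.65% (Lck in the 300 library). The share kept by Ptprc lay above the summed T marker share in the 300 library and overlapped it in the 150 library. In the 22 and 179 B-like cells without any T marker UMI, Ptprc stood at 18.7 and 38.4 CPM, Coro1a at 18.7 and 39.0 CPM, Lcp1 at 165 and 132 CPM and Laptm5 at 71.7 and 159 CPM. In the 48 B-like cells with such a UMI in the 300 library, Ptprc stood at 84.2 CPM (62.5 to 111), above the 38.4 CPM (29.5 to 49.3) of the cells without. The highest count in a cell was 12 of these 50 Ptprc UMIs, with a median of 0, and the Poisson interval does not allow for such clumping. The 6 such cells in the 150 library held 2 Ptprc UMIs, or 15.8 CPM (1.91 to 57.0), against the 18.7 CPM of the cells without. The part that T cell RNA had in the B-like values was not tested.

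Free RNA was also read from mouse genes in human cells. Ptprc gave 7 UMIs in 87 human cells and 16 in 318, or 11.2 CPM (4.49 to 23.0) and 11.6 CPM (6.65 to 18.9) of all UMIs. The B-like level of Ptprc overlapped this in the 150 library and lay above it in the 300 library. As counts, B-like cells held 8 Ptprc UMIs in 28 cells and 112 in 227. Human cells were shallower, so the same number of free UMIs would give a higher CPM in them. The other mouse members ranged from 1.59 to 13.8 CPM in human cells, below their B-like intervals in both libraries. Human members in T-like and B-like mouse cells ranged from 0 to 13.4 CPM, with LCP1 the highest.

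The share of cells in which a gene was found was compared at equal depth. Each cell was thinned to 2000 UMIs, and shallower cells were left out, which kept 41 and 339 T-like, 27 and 221 B-like and 82 and 282 human cells. In T-like cells Lcp1 was found in 80.5% (exact binomial interval 65.1% to 91.2%) and 81.1% (76.5% to 85.1%). Laptm5 was found in 68.3% and 67.6%, Ptprc in 61.0% and 70.5%, and Coro1a in 12.2% and 23.9%. Without thinning these shares were 100% and 99.7% for Lcp1, 97.6% and 93.1% for Laptm5, 100% and 96.3% for Ptprc, and 46.3% and 64.8% for Coro1a.

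In B-like cells at the same depth Laptm5 was found in 18.5% (6.30% to 38.1%) and 30.8% (24.8% to 37.3%), and Lcp1 in 18.5% and 24.4% (18.9% to 30.6%). Coro1a was found in 0 of 27 cells (exact interval up to 12.8%) and in 13.1% (8.97% to 18.3%) of 221 cells. Ptprc was found in 3.70% (0.094% to 19.0%) and 9.05% (5.62% to 13.6%). In human cells, which should lack the gene, Ptprc was found in 3.66% (0.76% to 10.3%) and 3.90% (1.96% to 6.87%). The B-like intervals overlapped these in both libraries. Thinning to equal depth removed more UMIs from B-like cells, whose median depth was higher than that of human cells. The B-like share rested on 1 of 27 cells in the 150 library and was the higher value in the 300 library. Lcp1, Laptm5 and Coro1a were found in 0% to 1.77% of human cells. Unthinned, Ptprc was found in 25.0% and 28.2% of B-like cells, against 6.90% and 4.72% of human cells, whose median depth was lower. The other members were found unthinned in 85.7% and 61.2% (Lcp1), 64.3% and 68.3% (Laptm5) and 28.6% and 30.8% (Coro1a) of B-like cells.

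**Figure D2:**
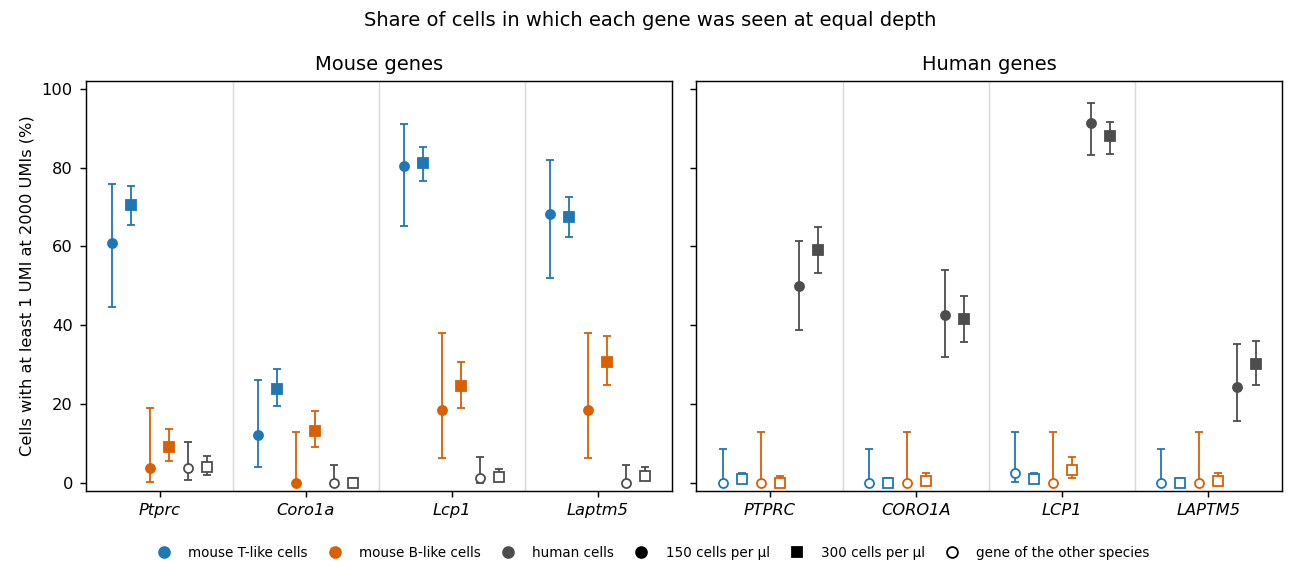
Share of cells (%) with at least 1 UMI of each gene after thinning every cell to 2000 UMIs, by class and library, with exact binomial 95% intervals; symbols are as in the plot of levels. Lcp1 was found in 80.5% and 81.1% of T-like cells and in 18.5% and 24.4% of B-like cells, and open symbols reach at most 3.90%.

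The number of the 4 genes seen per cell at 2000 UMIs overlapped between T-like and B-like cells. At 2000 UMIs with both libraries pooled, 1.32% of 380 T-like cells (0.43% to 3.04%) showed none of the 4, against 43.5% of 248 B-like cells (37.3% to 49.97%). These intervals cover counting error only. The B-like share was 63.0% (42.4% to 80.6%) of 27 cells in the 150 library and 41.2% (34.6% to 48.0%) of 221 cells in the 300 library. In the pooled cells, all 4 were seen in 10.8% of T-like and 0.81% of B-like cells. In human cells the corresponding shares were 2.47% and 5.77% of 364. At full depth 0 of 390 T-like cells and 8.63% of 255 B-like cells showed none.

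**Figure D3:**
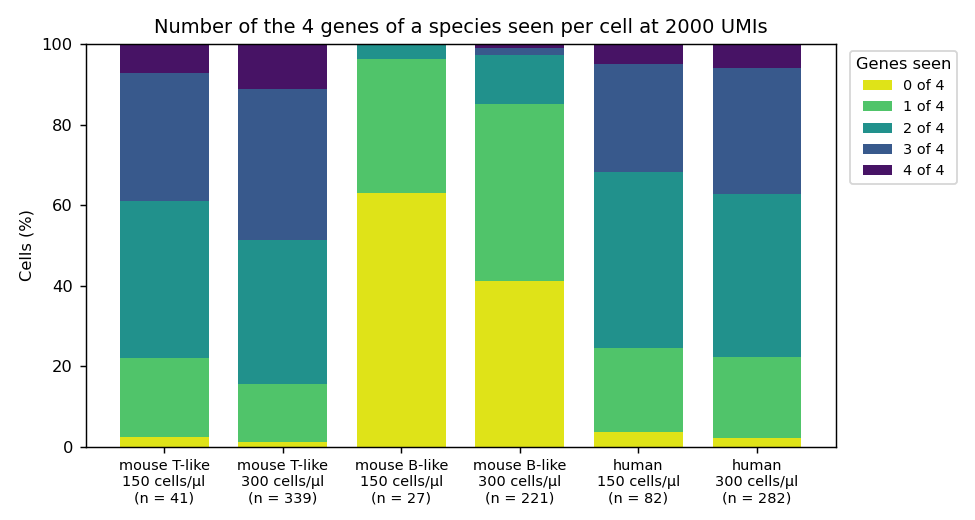
Share of cells (%) in which 0 to 4 of a species' 4 genes were seen at 2000 UMIs, by class and library, with the number of cells under each bar. None of the 4 was seen in 63.0% and 41.2% of B-like cells, 2.44% and 1.18% of T-like cells and 3.66% and 2.13% of human cells.

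The human cells carried all 4 members. Human cells were T-like by CD3D, CD3G, LCK and CD2 in each of their 3 clusters. Markers of cytotoxic T cells summed to 32.4 and 39.2 CPM in them, whereas mostly human barcodes of at least 300 and under 1000 UMIs held 1097 and 2187 CPM of those markers. Which human cells were TALL-104 was not analysed here. LCP1 stood at 1277 CPM (1189 to 1369, 787 UMIs) and 1221 CPM (1162 to 1282, 1618 UMIs), at rank 109 of 11595 and 103 of 13023 detected genes. PTPRC stood at 397 CPM (349 to 450, 245 UMIs) and 503 CPM (466 to 543, 667 UMIs), and its intervals did not meet. CORO1A stood at 260 CPM (221 to 303, 160 UMIs) and 274 CPM (246 to 304, 363 UMIs). LAPTM5 stood at 175 CPM (144 to 211, 108 UMIs) and 174 CPM (152 to 198, 230 UMIs). A partial second copy of CORO1A lies in the human genome, and how reads shared with it were counted is not given in the sources used here.

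At 2000 UMIs, LCP1 was found in 91.5% and 87.9% of human cells, PTPRC in 50% and 59.2%, CORO1A in 42.7% and 41.5%, and LAPTM5 in 24.4% and 30.1% (24.8% to 35.9%). In mouse cells these human genes were found in at most 3.17%. Side by side with mouse T-like cells, LCP1 and CORO1A had higher values in human cells and PTPRC and LAPTM5 had lower ones in both libraries, with intervals apart in each. Species, line and reference annotation differ together between these cells and cannot be told apart, so no test was made.

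Between the clusters of mouse T-like cells the members varied less than between the mouse classes. The T-like cells fell into 2 clusters of 272 and 118 cells. Ptprc stood at 562 CPM (532 to 594) in the first and 668 CPM (626 to 711) in the second, and the second was higher within each library (556 and 642 CPM in the 150 library, 563 and 674 CPM in the 300 library). Laptm5 went the other way, at 562 CPM (532 to 594) and 487 CPM (451 to 524). Lcp1 (903 and 838 CPM) and Coro1a (126 and 136 CPM) differed little. Among the 3 human clusters, with both libraries summed, LCP1 ranged from 1200 to 1262 CPM, LAPTM5 from 168 to 182 CPM and CORO1A from 227 to 288 CPM. PTPRC stood at 515, 408 and 510 CPM. By library PTPRC stood at 520, 337 and 368 CPM in the 150 library and 512, 437 and 585 CPM in the 300 library. The place of the third cluster thus differed between the libraries. Clusters were built from these cells and are no replicates, so these values are descriptions.

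The 2 shallow mouse clusters without a name split as the named classes did in part. Cluster 4, with 76 cells, held B markers at 6385 CPM and T markers at 270 CPM, and Ptprc stood there at 211 CPM (136 to 311), above the 45.2 CPM (37.5 to 54.0) of B-like cells. Cluster 5, with 49 cells, held T markers at 2593 CPM and B markers at 802 CPM, with Ptprc at 530 CPM (373 to 731) and Lcp1 at 659 CPM (483 to 879). Markers of the opposite class were thus higher in both than in the named classes, where T markers summed to 51.2 CPM in B-like cells. The part that free RNA had in these values was not tested.

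**Figure D4:**
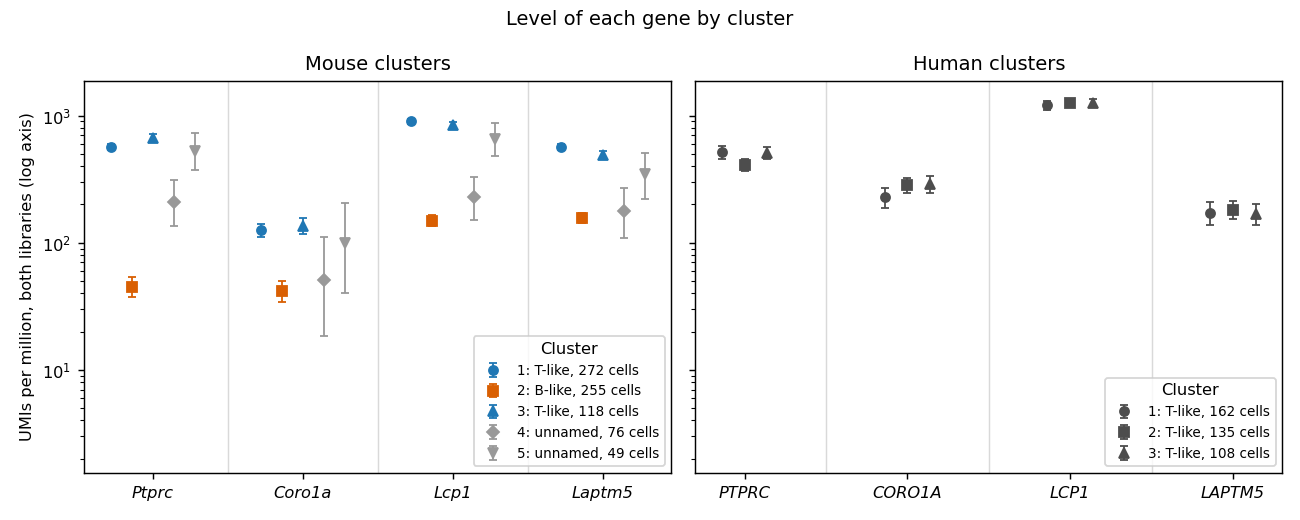
Level of each gene in CPM (log axis) by cluster in both libraries together, with exact Poisson 95% intervals, for mouse (left) and human (right) clusters. The 2 T-like mouse clusters lie close together, the B-like cluster lies below them, and unnamed cluster 4 lies above the B-like cluster for Ptprc (211 against 45.2 CPM).

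Between the libraries, which differ in loading concentration and have 1 library each, the members did not move together. Lcp1 held its level, with a log2 ratio of the 300 over the 150 library of 0.03 in T-like cells (−0.11 to 0.17) and 0.04 in B-like cells. Ptprc was at 0.01 in T-like cells (−0.15 to 0.18) and at 1.505 in B-like cells (0.48 to 2.75), where the lower library had 8 UMIs. Laptm5 was at 0.44 (0.25 to 0.64) and 0.93 (0.46 to 1.44). Coro1a was at 1.66 in T-like cells (1.10 to 2.27), or 3.15-fold higher, and at 1.19 in B-like cells (0.20 to 2.36). Among genes with at least 100 UMIs, 3.82% passed 2-fold in T-like cells, 5.34% in B-like cells and 1.77% in human cells. Coro1a passed it in both mouse classes and Ptprc in B-like cells. No human member passed it: CORO1A was at 0.08 (−0.19 to 0.36), LCP1 at −0.06, LAPTM5 at −0.01 and PTPRC at 0.34 (0.13 to 0.56). With TMM scaling all these values fell by 0.12 to 0.13, which turned the sign of Lcp1 in both mouse classes, of Ptprc in T-like cells and of CORO1A in human cells.

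Other pan-leukocyte genes were not uniformly lower in B-like cells. Of 20 listed mouse genes 19 were tested, and 11 were called lower and 5 higher by edgeR, against the 25.9% and 30.8% given above for all genes. Their median log2 difference was −1.0. The most reduced were Cd48, a SLAM-family receptor (−4.45), and Ptpn6, the phosphatase SHP-1 (−3.78), followed by Spn (CD43) at −2.72, Ptprcap, the CD45-associated protein, at −2.39, Itgal at −2.30 and the transcription factor Ikzf1 at −1.91. Ptpn6 stood at 468 and 732 CPM in T-like cells and at 40.2 and 48.5 CPM in B-like cells. Ptprcap stood at 592 and 668 CPM and at 89.4 and 131 CPM.

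The genes called higher were 5 in number. Selplg, the P-selectin ligand PSGL-1, was higher in B-like cells by 5.97 on the log2 scale, with 0 and 2.54 CPM in T-like cells and 84.9 and 141 CPM in B-like cells. Lsp1, an actin-binding protein of leukocytes, was higher by 3.61 on 10 and 43 B-like UMIs, the adhesion receptor Cd44 by 1.98, the surface glycoprotein Cd52 by 1.35 and the tetraspanin Cd53 by 1.03. Cd44 stood at 44.4 and 61.6 CPM in T-like cells and at 177 and 231 CPM in B-like cells. The tetraspanin Cd37 had the smallest called difference, at −0.61. Vav1 (0.31), Rac2 (−0.15) and Dock2 (−0.17), which take part in Rac signalling and are named here because they did not pass the test, had adjusted p = 0.15, 0.28 and 0.47 by edgeR. DESeq2 called 8 of the list lower and 4 higher, against 10.6% and 11.6% of all genes tested. Relative to edgeR, DESeq2 lost Cd53 (adjusted p = 0.088), Cd37, Itgal (0.052) and Hcls1.

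**Figure D5:**
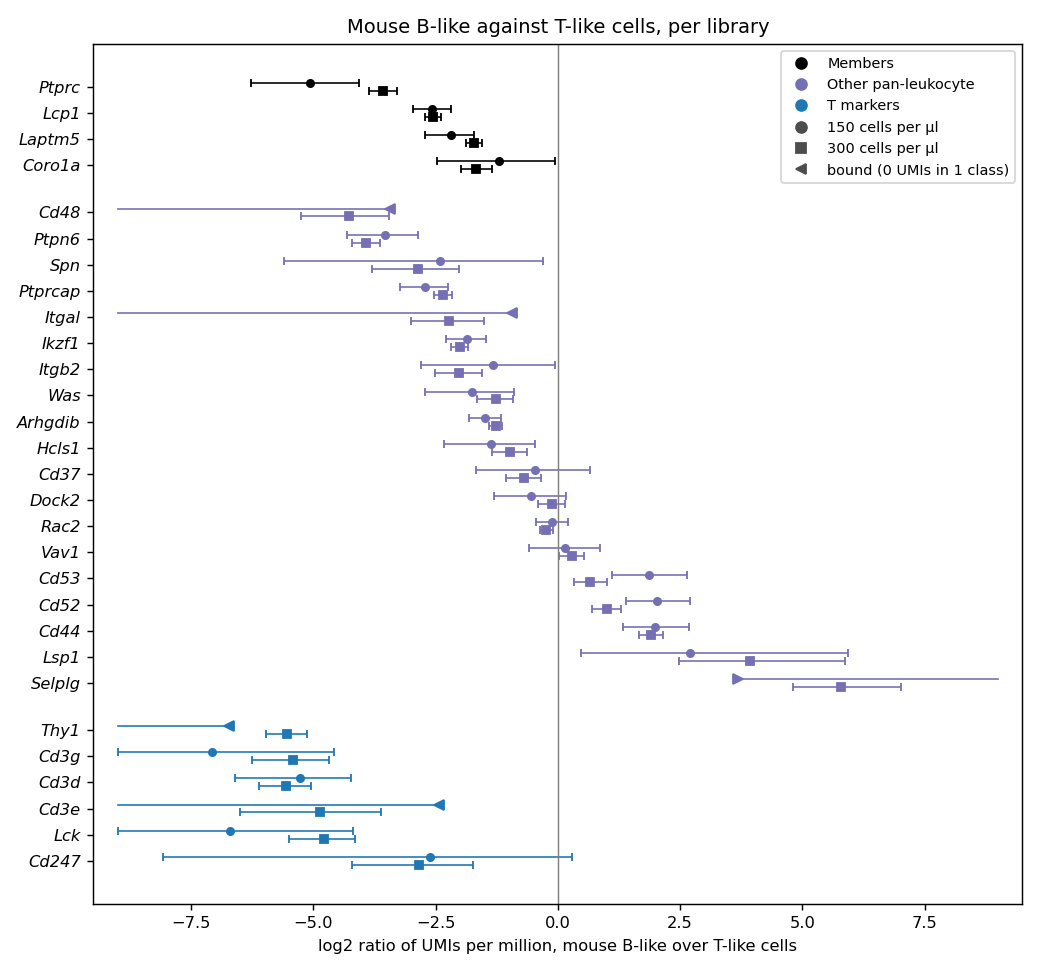
Log2 ratio of CPM in mouse B-like over T-like cells for the 4 members (black), 19 other pan-leukocyte genes (purple) and 6 T markers (blue), with circles for the 150 and squares for the 300 library, exact 95% intervals clipped at the plot edge, and arrowheads for bounds where a class had 0 UMIs. The members lie between −5.06 and −1.20, the T markers lie between −7.07 and −2.61 where they have UMIs in both classes, and Selplg, Lsp1, Cd44, Cd52 and Cd53 lie to the right of 0.

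The listed genes whose pattern was nearest to each member over the 4 sums of class and library were found by Euclidean distance of centred log2(CPM + 1) values. Ptprc was nearest to Ptpn6 (distance 1.11), Coro1a to Itgb2 (0.73), and Lcp1 and Laptm5 both to Ptprcap (0.37 and 0.67). For Laptm5, Itgb2 was as near, at 0.67. In human cells 18 of 20 listed pan-leukocyte genes were detected in each library, with a summed level of 3293 and 3454 CPM, beside 2109 and 2172 CPM for the 4 members.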

How the data were processed

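For each library the authors deposited raw UMI counts, not normalized, as a matrix of genes by barcodes. Per the study's methods, reads were first downsampled to a common depth, and Drop-seq tools and STAR (2.4.2a per the submitters' processing notes, which also name Cell Ranger 1.2.0) were then used with a joint hg19 and mm10 reference. The labels do not name the run behind each matrix. The tables summed to 2398956 and 8707135 UMIs over 2000 and 4000 barcodes, and depth limits values as their intervals show.

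The members and lists were chosen with earlier results of these data known. Genes carry Ensembl identifiers without symbols: member names came with the choice, and list names were paired with identifiers from general annotation knowledge, which the tables cannot check. Some listed markers, among them receptor and immunoglobulin constant genes, were not analysed here.

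Barcodes needed at least 1000 UMIs and 90% of 1 species. Per species, counts were scaled to 10000 per cell and logged, and 2000 variable genes in at least 10 cells, without the members, gave 15 components, 15 neighbours and Leiden clusters at resolution 0.5 (leidenalg 0.10.2, Python 3.11.15). A cluster took the name of the markers it held most of, if at least 3 were detected, unless its median depth was under 1/3 of its library's and no marker was among its top 10 genes. No doublet caller was run. Of 645 named mouse cells 640 had the same class by marker UMIs.

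UMIs summed per class and library were tested with edgeR 4.0.16 (R 4.3.3; filterByExpr, TMM, library as block, Benjamini-Hochberg at 0.05) after a check on simulated sums, with DESeq2 1.42.0 as an alternative. The block pairs classes that come from the same library. Named from the pan-leukocyte list were up to 6 genes with the largest and 6 with the smallest called change of the same sign in both libraries, from the marker lists up to 4 with the most UMIs, and the genes nearest to a member. Intervals are exact Poisson, conditional binomial or Clopper-Pearson at 95%, and a count of 0 allows 3 counts.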

Additional observations from a re-analysis of the deposited data

Results flagged for a closer look

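Members were also counted in barcodes that no comparison used, and each sum lay above the 3 UMIs that a count of 0 allows. Mostly human barcodes of at least 300 and under 1000 UMIs held 71 UMIs of the 4 human members in the 150 library (51 barcodes, 3386 CPM) and 136 in the 300 library (82 barcodes, 3380 CPM), with PTPRC at 1479 and 1143 CPM. Mixed barcodes held 24 and 201 UMIs of the mouse members and 55 and 259 UMIs of the human members. Barcodes of at least 200 and under 600 UMIs held 651 and 1138 UMIs of the mouse members (1584 and 1444 CPM) and 488 and 509 UMIs of the human members (2950 and 3118 CPM).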

How the results depend on the processing

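All 4 mouse members stayed lower in B-like cells and past the threshold in each of the 11 tested alternatives. Of all genes tested, the share called lower ran from 10.6% (DESeq2) to 29.3% (unnamed clusters joined), and was 17.6% without the block. The range was −4.18 to −3.53 for Ptprc, −2.68 to −2.49 for Lcp1, −1.99 to −1.76 for Laptm5 and −1.86 to −1.41 for Coro1a, whose largest adjusted p was 0.024 (DESeq2). Without the replicate block (the library), the values were −3.91, −2.52, −1.80 and −1.41. With 1 library left out, which gives no test, they ran from −5.06 to −3.57 (Ptprc), −2.57 to −2.56 (Lcp1), −2.20 to −1.71 (Laptm5) and −1.67 to −1.20 (Coro1a). With cells weighted equally Lcp1 was −2.44. Of 8857 genes, DESeq2 called 1964 in either direction, against 5017 by edgeR, and 3431 were called without the block. Joining the unnamed clusters and leaving out B-like cells with a T marker UMI were chosen after seeing the data. Human levels stayed within their intervals in 16 of 16 alternatives. These alternatives shared most of their cells with the main setting, so little movement was possible. Shares of cells moved with the number of UMIs kept per cell in 43 of 48. Ptprc and Coro1a in B-like cells in the 150 library rest on 8 and 9 UMIs, which sets the limit there.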
